A study of Homo sapiens with 9 samples.

Results

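Cytosolic ribosomal proteins are the protein parts of the ribosomes that translate nuclear-encoded messenger RNA. The genes described here are the rows of the expression table whose symbols follow the human RPL and RPS naming scheme, together with the stalk genes RPLP0, RPLP1 and RPLP2 and the small-subunit gene RPSA. The S6 kinases, whose symbols also begin with RPS6, and Y-linked rows were left out. The rule found 84 of the 19389 genes in the table. By symbol, 49 were assigned to the large subunit, 32 to the small subunit and 3 to the P stalk, the flexible arm on which elongation factors land. A symbol does not show that a protein is part of the mature ribosome, and duplicates such as RPL7L1 were counted with the rest. Of the 84 genes, 82 passed the filter on low values (3 libraries or more at 1 or above) and were tested, while RPL39L and RPL3L stayed under it.

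Each ribosome needs a single copy of nearly every ribosomal protein beside its ribosomal RNA, and cells adjust the supply of these proteins largely through translation of their mRNAs. Most of these mRNAs begin with a C followed by a run of pyrimidines, the terminal oligopyrimidine tract, through which LARP1 and the mTORC1 kinase complex couple their translation to growth signals. Several ribosomal proteins also act outside the ribosome, such as RPL5 and RPL11, which restrain the p53 inhibitor MDM2. An mRNA level does not report translation or the amount of protein.

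The RNA came from SW1353, an established human chondrosarcoma cell line used in place of cartilage cells, with 3 libraries in each of 3 groups. One group received PBSL, a preparation of Protaetia brevitarsis seulensis (beetle) larvae, 2 h ahead of a 20 h exposure to IL-1β, a cytokine of joint inflammation, at 20 ng/mL. Another received this IL-1β exposure with no PBSL, and the last was left untreated. No group was given PBSL alone, the PBSL concentration of the sequenced cells is not stated, and the labels do not say whether the libraries of a group came from separate cultures, so p-values reflect the spread among libraries, which may be technical.

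The deposited expression values are normalised values and not read counts, so the depth behind each is unknown. They summed to between 523758 and 553196 in a library. VIM, a mesenchymal filament gene, lay between 2997 and 3403 in every library. COL2A1, the cartilage collagen that defines mature chondrocytes, did not exceed 0.027 in any. SOX9, a chondrocyte transcription factor, was present in all. It lay between 8.003 and 9.566 in PBSL with IL-1β, 8.576 and 9.232 in IL-1β alone and 11.473 and 12.781 in untreated libraries. By limma (adjusted p under 0.05), 4 of 6 tested cell line markers rose and 1 fell with IL-1β alone against untreated cells. In PBSL with IL-1β 1 rose and 2 fell against IL-1β alone, and 3 rose and 2 fell against untreated cells. Of 13 markers of epithelial, blood, immune and endothelial cells, EPCAM, CDH1, PTPRC, PECAM1, VWF and CDH5 stayed under 0.5 in every library. The 13 markers summed to between 140.3 and 164 in PBSL with IL-1β, between 173 and 175 in IL-1β alone and between 215 and 220.1 in untreated libraries, and nearly all of this came from KRT8, KRT18 and CD68. KRT8 lay between 13.7 and 17.5 in PBSL with IL-1β, 17.5 and 18.6 in IL-1β alone and 37.8 and 41.6 in untreated libraries, and KRT18 between 40.1 and 55.7 in PBSL with IL-1β, 54.3 and 55.8 in IL-1β alone and 98.2 and 104 in untreated libraries. CD68 went the other way with IL-1β, between 79.5 and 85.4 in PBSL with IL-1β, 93.7 and 97.0 in IL-1β alone and 68.0 and 75.4 in untreated libraries. Their part in the results on ribosomal proteins was not tested.

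The members were among the most abundant transcripts of the cells. Of the 84, 79 had a mean value of at least 100 and 32 a mean of at least 1000, and 25 stood among the 50 highest rows of the whole table. Over all 9 libraries, the mean values of the 82 tested members had a median of 890.04. RPS27, a small-subunit protein with a zinc finger, was the highest, with a mean of 4338, and RPL36A, RPS2 and RPL37A followed it. Coding sequences were short, from 75 nucleotides in RPL41 to 1281 in RPL4, with a median of 454.5 against 1371 over all tested genes. The genes lie on 21 chromosomes, 28 of them contain small nucleolar RNA genes within their bounds, and 77 have pseudogenes named after them, 1145 in all and 91 for RPL23A. How the authors counted reads that match both a gene and such copies is not given in the sources used here, so the levels of these members are uncertain to that extent.

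The bases around the annotated transcription starts are shown for members on which the results turn, since the pyrimidine tract sits there. Each line holds 20 bases before the start and the first 10 bases of the transcript, 5′ to 3′ on the gene's own strand, as DNA letters from the RefSeq promoter table of build GRCh38.p14. Capitals mark the run of C and T that opens the transcript where it begins with C and holds at least 4 further pyrimidines; a line with no capitals has no such run at that start.
RPL22L1: gaccgcgcggccgtagcttcCTCTCTgctc
RPL22: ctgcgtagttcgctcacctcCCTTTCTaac
RPL35A: ccacgcggcggggcctcgtcCTTCTCTTac
RPS3A: tcgcgcgactcccacttccgCCCTTTTggc
RPS6: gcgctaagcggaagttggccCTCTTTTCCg
RPS27: gcaggatttccgctttcgctCCTTTCCggc
RPS27L: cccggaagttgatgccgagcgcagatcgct
RPL7L1: cgcgccggaagtgcggcgccgtagctagga
RPS7: ttccggtttccgccctcctcctcgcgctgt
The windows lie at chr3:170870186-170870215 on the minus strand for RPL22L1, chr1:6199586-6199615 on the minus strand for RPL22, chr3:197950170-197950199 on the plus strand for RPL35A, chr4:151099608-151099637 on the plus strand for RPS3A and chr9:19380227-19380256 on the minus strand for RPS6. Those of RPS27, RPS27L, RPL7L1 and RPS7 lie at chr1:153990742-153990771 (plus), chr15:63157468-63157497 (minus), chr6:42879596-42879625 (plus) and chr2:3575240-3575269 (plus). The RefSeq table held 83 annotated starts for 67 of the 84 members. By this letter rule, searched on the gene's strand at annotated starts alone, 47 of the 67 members had a tract at any start. That was 70.1%, against 680 of 9451 other tested genes, or 7.20%. Counted by start, 47 of 83, or 56.6%, had a tract, against 696 of 13960 starts of other tested genes, or 4.99%. These shares describe the annotation and not the starts used in these cells. RPS27L and RPL7L1, both duplicates of a ribosomal protein gene, lacked the tract at the annotated start, whereas RPL22L1, another duplicate, had it.

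The effect of IL-1β by itself on these mRNAs was taken first. They were slightly lower as a group: the summed values of the 84 genes took 15.0%, 14.9% and 14.8% of the total in the IL-1β libraries, against 16.2%, 15.8% and 16.7% in the untreated libraries. The means were 14.9% ± 0.115 in IL-1β cells and 16.3% ± 0.450 in untreated cells (SD, n = 3 each). All 3 IL-1β libraries lay below all 3 untreated ones, and with 3 libraries a side the smallest exact permutation p is 0.1. The large subunit took 7.82% ± 0.0556 in IL-1β cells and 8.52% ± 0.252 in untreated cells, and the small subunit took 6.58% ± 0.0565 in IL-1β cells and 7.20% ± 0.179 in untreated cells. In bulk RNA, fewer cells of a kind and less RNA per cell cannot be told apart, and a share also moves when other genes rise.

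**Figure D1:**
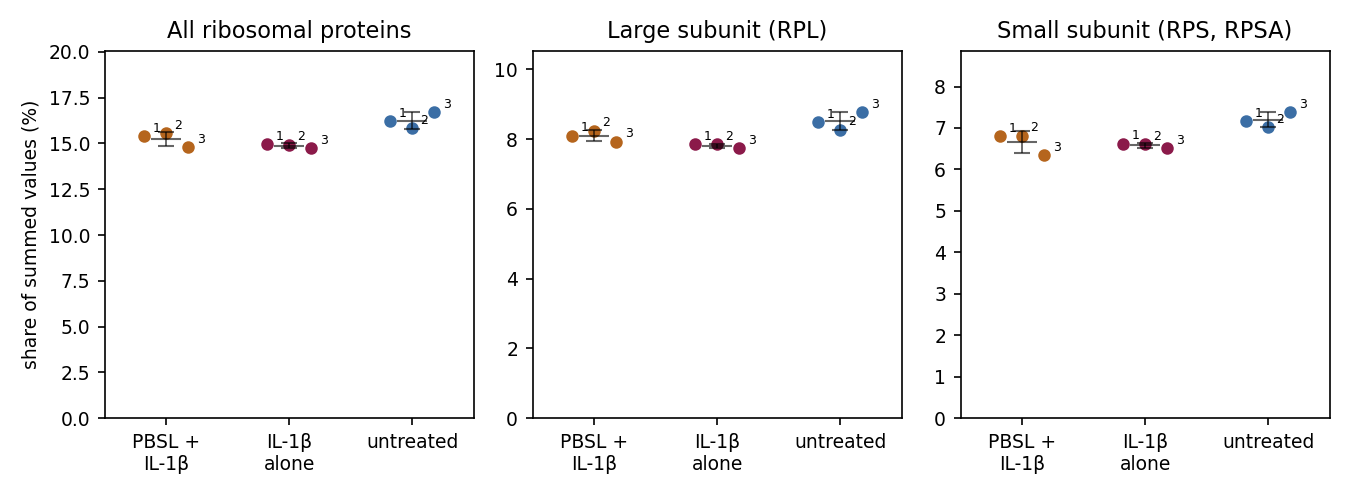
Share of the summed expression values of a library (y axis, percent) taken by all ribosomal protein genes, by the large subunit and by the small subunit, in PBSL with IL-1β, IL-1β alone and untreated cells. Points are libraries with their numbers, and the bar and whiskers are the mean and SD of 3 libraries; the IL-1β points for all genes lie between 14.8% and 15.0%, under the untreated points at 15.8% to 16.7%.

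By limma, with a Benjamini-Hochberg adjusted p under 0.05 over all 11924 genes tested, 12 of the 82 members fell with IL-1β and none rose, where 32.1% of all genes were called, 16.2% higher and 16% lower. The members' 14.6% called lower was near the background in this fit, and other settings gave other shares, stated with the alternatives. Without adjustment, 27 members, or 32.9%, had p under 0.05, all lower, where 41.8% of all genes did in either direction. The fitted log2 fold change was below 0 in 70 of 82 members, with a median of -0.09, against 51.1% of all tested genes with a median of -0.0049. Among the 422 other genes within the 500 most abundant, 55.9% were below 0 and the median was -0.023. The IL-1β libraries lay wholly below the untreated ones in 35 members and wholly above in 2, where the background was 27.1% and 25.7% of all genes. The median was -0.087 in the 47 tested members of the large subunit and -0.087 in the 32 of the small subunit.

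**Figure D2:**
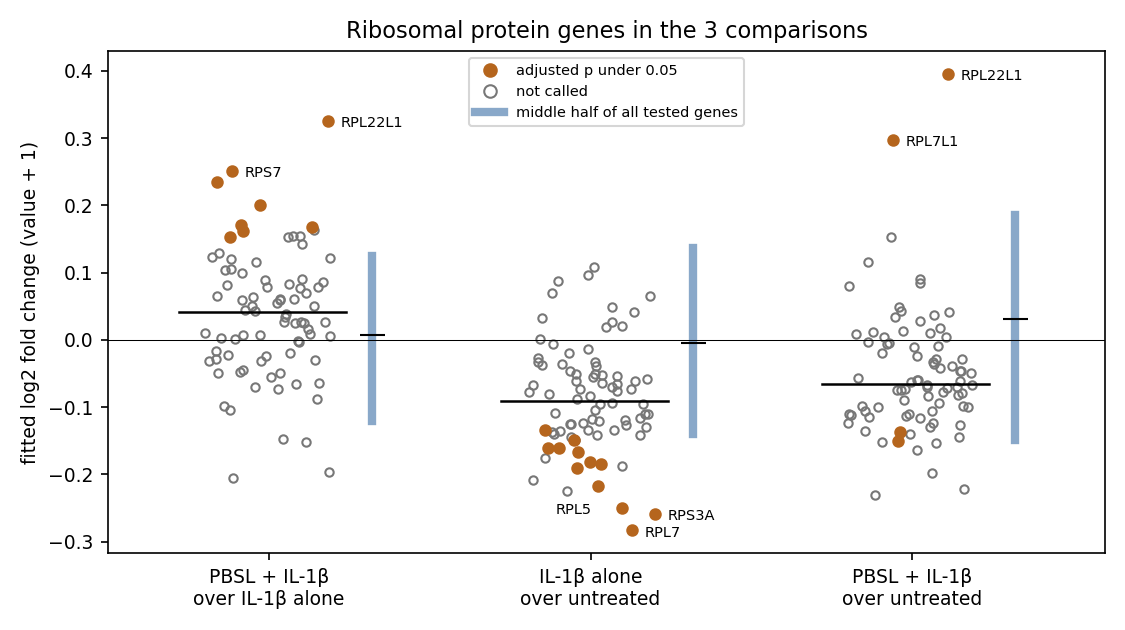
Fitted log2 fold change of log2(value + 1) for each of the 82 tested ribosomal protein genes (points) in the 3 comparisons. Filled points have an adjusted p under 0.05, the long black line is the members' median, and the blue bar with a short black line spans the lower to the upper quartile, with the median, of all 11924 genes; members shift below 0 in IL-1β over untreated, with a median of -0.09, and RPL22L1 and RPL7L1 stand highest in PBSL with IL-1β over untreated.

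Among large-subunit members, RPL7, an RNA-binding protein, had values of 775, 762 and 760.3 in IL-1β cells, against 968, 880.3 and 949 in untreated cells. The groups did not overlap, and the log2 fold change was -0.28 (SE 0.0515, limma adjusted p = 0.00125). RPL5, which carries the 5S RNA into the ribosome with RPL11 and can bind MDM2, had 533, 524 and 529.98 in IL-1β cells, against 648, 592 and 651 in untreated cells. It was lower in each IL-1β library than in any untreated one, at -0.25 on the log2 scale (SE 0.055, limma adjusted p = 0.00426). RPL11, its partner, was at -0.05 on the log2 scale (adjusted p = 0.469). RPL5 lies on chromosome 1 from 92831983 to 92841924 on the plus strand (hg38, GENCODE 29).

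RPL22, an RNA-binding protein of the large subunit that is not needed for translation in general, had 159, 151 and 162 in IL-1β cells, against 184, 180.3 and 185 in untreated cells. RPL22 fell, with a log2 fold change of -0.22 (limma adjusted p = 0.0178). RPL23, a large-subunit protein that can also bind MDM2, had 593, 567 and 583 in IL-1β cells, against 680.1, 646 and 651 in untreated cells. Its groups did not overlap, at a log2 fold change of -0.18 (adjusted p = 0.0103). RPL27, mutated in some families with Diamond-Blackfan anaemia, an inherited failure of red cell production, fell by 0.19 on the log2 scale (adjusted p = 0.0336). RPL7A and RPL17, both large-subunit proteins, fell by 0.16 (adjusted p = 0.0323) and 0.15 (adjusted p = 0.0319).

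Among small-subunit members, RPS3A, which lies near the mRNA exit, had 758, 779 and 721 in IL-1β cells, against 916, 838 and 951 in untreated cells. Every IL-1β library was under every untreated one, and the log2 fold change was -0.26 (SE 0.0563, limma adjusted p = 0.00393). RPS10, a protein at the mRNA entry that the ligase ZNF598 marks with ubiquitin on collided ribosomes, had 628, 622 and 602 in IL-1β cells, against 713, 685 and 707 in untreated cells. It fell by 0.18 on the log2 scale (adjusted p = 0.00858), with no overlap between the groups. RPS15A, a small-subunit protein, fell by 0.16 (adjusted p = 0.0382) and RPS4X, encoded on the X chromosome, by 0.13 (adjusted p = 0.0483).

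Members with known roles outside the called set followed. RPS6, the substrate of the S6 kinases, missed narrowly at -0.14 (limma adjusted p = 0.0519), with 690.04, 689 and 707 in IL-1β cells, against 779, 735 and 788 in untreated cells. Values did not overlap. RPLP1, an acidic stalk protein, was at -0.22 (adjusted p = 0.0842), RPLP0, the stalk base, at -0.10 (adjusted p = 0.306) and RPLP2, the partner of RPLP1, at 0.02 (adjusted p = 0.872). RPSA, also known as the laminin receptor precursor, was at -0.12 (adjusted p = 0.133) and RPS27A, made as a fusion to ubiquitin, at -0.06 (adjusted p = 0.468). RPS19, the gene most often mutated in Diamond-Blackfan anaemia, was at -0.02 (adjusted p = 0.852), RPS26 at -0.11 (adjusted p = 0.122) and RPS28 at -0.07 (adjusted p = 0.421). RPL26, which can bind p53 mRNA, was at -0.10 (adjusted p = 0.132), RPL39, at the exit tunnel, at -0.19 (adjusted p = 0.0712), RPL3, near the peptidyl transferase centre, at 0.02 (adjusted p = 0.841) and RPL10, a late-joining protein of the large subunit, at -0.08 (adjusted p = 0.3). RPL41 was at 0.04 (adjusted p = 0.867), RPS27 at -0.03 (adjusted p = 0.834) and RPL10A at -0.06 (adjusted p = 0.568).

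The calls for RPL7, RPL5 and RPS3A held under all 18 alternatives tried, with the highest adjusted p at 0.00867, 0.0225 and 0.0272. Others were less firm: the call was lost in 1 alternative for RPS10, 2 for RPL23, 3 for RPL22 and 8 each for RPL27 and RPL7A. Without untreated 3, the limma adjusted p was 0.118 for RPL17, 0.138 for RPS15A and 0.147 for RPS4X. The number of members that fell was 5 without untreated 1, 21 without untreated 2, 5 without untreated 3, and 6, 4 and 5 without IL-1β 1, 2 and 3, where the full data gave 12, and the share of all genes that fell was between 11.99% and 14.1% in these fits. It was 6 with no filter, with no variance trend or with a replicate block, where 11.6%, 15.4% and 14.2% of all genes fell. With only these 2 groups in the fit 26 members, or 31.7%, fell, against 21.2% of all genes. With each library scaled to the same sum 36, or 43.9%, fell, against 19.4%, and with a trend on length and GC content removed 48, or 58.5%, fell, against 23.4%.

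The second comparison asked what PBSL before IL-1β changed relative to IL-1β alone; it uses the IL-1β libraries of the first comparison again, so the directions of both are tied. As a group the members stayed close to IL-1β alone: they took 15.4%, 15.6% and 14.8% of the summed values in PBSL with IL-1β, against 15.0%, 14.9% and 14.8% in IL-1β alone. The means were 15.2% ± 0.405 in PBSL with IL-1β and 14.9% ± 0.115 in IL-1β alone (SD, n = 3 each), and the libraries overlapped. By limma, 8 members rose and none fell, where 22.5% of all genes were called, 11.5% higher and 11% lower, so the members' 9.76% was under the background of rises. Without adjustment 18, or 21.95%, had p under 0.05, all higher, where 36.6% of all genes did in either direction. The fitted change was above 0 in 56 of 82 members with a median of 0.041, against 52.1% of all tested genes with a median of 0.0079; without PBSL 3 the members' median was 0.071. The PBSL libraries lay wholly above the IL-1β ones in 23 members and wholly below in 1, where the background was 21.7% and 20.1%.

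RPL22L1, the duplicate of RPL22, showed the largest rise. Its values were 166, 178 and 153 in PBSL with IL-1β, against 142, 129.9 and 123 in IL-1β alone. The log2 fold change was 0.33 (SE 0.0756, limma adjusted p = 0.0120), or 25.3% higher, and the groups did not overlap. RPL7L1, the duplicate of RPL7, had 53.7, 59.4 and 53.4 in PBSL with IL-1β, against 47.2, 49.5 and 47.7 in IL-1β alone. Every PBSL library exceeded every IL-1β one, at 0.20 on the log2 scale (SE 0.0566, limma adjusted p = 0.0267). RPL22L1 lies on chromosome 3 from 170864875 to 170870483 on the minus strand and RPL7L1 on chromosome 6 from 42879618 to 42889925 on the plus strand (hg38, GENCODE 29).

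RPS7, a small-subunit protein that can bind MDM2, had 771, 856 and 982 in PBSL with IL-1β, against 742, 694 and 746 in IL-1β alone. It rose by 0.25 on the log2 scale (SE 0.0793, limma adjusted p = 0.0416), but its PBSL values were widely spread and library 3 was the highest. RPL35A, a Diamond-Blackfan gene of the large subunit, had 488, 539 and 561 in PBSL with IL-1β, against 449, 446 and 453 in IL-1β alone. It rose by 0.23 on the log2 scale (SE 0.0649, limma adjusted p = 0.0246), with no overlap.

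RPL23 had 636, 666 and 661 in PBSL with IL-1β, against 593, 567 and 583 in IL-1β alone, a log2 fold change of 0.17 (limma adjusted p = 0.0232). RPL5 had 565, 595 and 626 in PBSL with IL-1β, against 533, 524 and 529.98 in IL-1β alone, a log2 fold change of 0.17 (adjusted p = 0.0470). In both genes the groups were apart. RPL38, which in mouse embryos favours translation of Hox mRNAs, rose by 0.16 (adjusted p = 0.0464) and RPS6 by 0.15 (adjusted p = 0.0497). Just outside the threshold, RPL7 had a log2 fold change of 0.15 (adjusted p = 0.0508), with 818, 869 and 869.9 in PBSL with IL-1β, against 775, 762 and 760.3 in IL-1β alone.

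**Figure D3:**
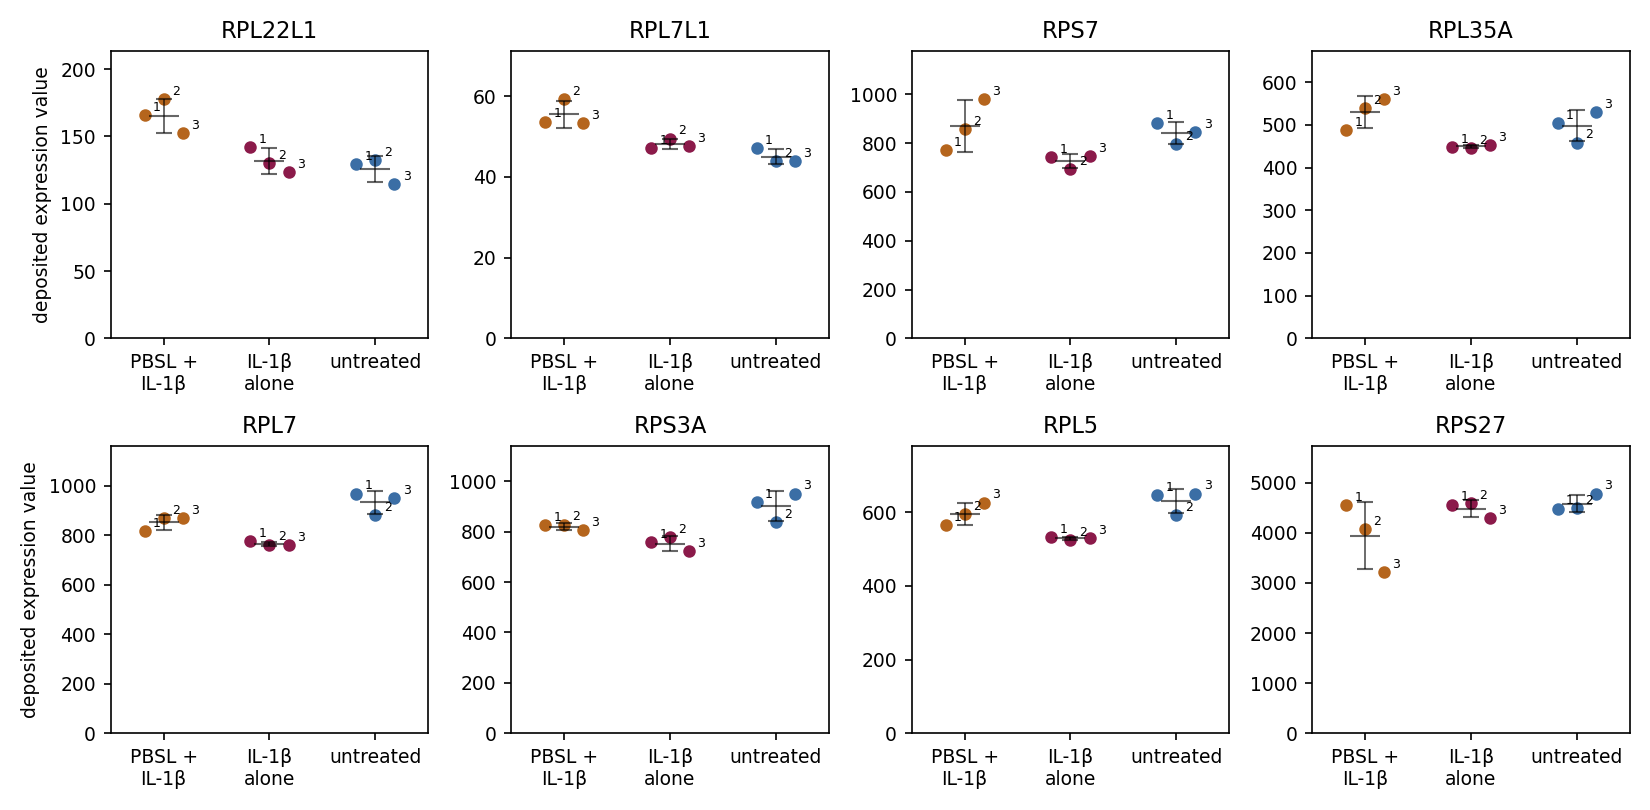
Deposited expression values (y axis from 0) of RPL22L1, RPL7L1, RPS7, RPL35A, RPL7, RPS3A, RPL5 and RPS27 in PBSL with IL-1β, IL-1β alone and untreated cells. Points are libraries with their numbers, the bar and whiskers the mean and SD of 3 libraries; RPL22L1 is highest in the PBSL libraries at 153 to 178, RPL7 is lowest in the IL-1β libraries at 760.3 to 775, and RPS27 is lowest in PBSL library 3 at 3219.

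Among the stalk genes, RPLP1 had 843, 905 and 1149 in PBSL with IL-1β, against 863, 854 and 846 in IL-1β alone, so that library 3 stood apart and the groups overlapped (log2 fold change 0.16, limma adjusted p = 0.220). RPLP0 was at -0.05 (adjusted p = 0.637) and RPLP2 at -0.07 (adjusted p = 0.543). RPSA, RPS19, RPS28, RPL10A, RPL10 and RPL3 all had a fitted log2 change between -0.05 and 0.01. RPL11 was at 0.06 (adjusted p = 0.421), RPL22 at 0.15 (adjusted p = 0.0919), RPS26 at 0.08 (adjusted p = 0.268), RPL39 at 0.08 (adjusted p = 0.481) and RPS27L at -0.15 (adjusted p = 0.170). RPL41, the shortest protein of the ribosome, and RPS27 had the lowest fitted changes among these genes, -0.21 (adjusted p = 0.356) and -0.20 (adjusted p = 0.182), and both had their lowest value of the 9 libraries in PBSL 3. Without that library RPL41 was at 0.02 (adjusted p = 0.901) and RPS27 at -0.06 (adjusted p = 0.555).

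The number of members that rose was 8 with all libraries. Leaving out IL-1β 1, 2 and 3 in turn gave 1, 1 and 0, and leaving out PBSL 1, 2 and 3 gave 14, 1 and 3. It was 4, 9 and 4 without untreated 1, 2 and 3, which enter through the shared spread. There 10.4%, 10.1% and 10.7% of all genes rose. The share of all genes that rose was between 5.45% and 6.02% without 1 IL-1β library, and 16.9%, 5.98% and 7.87% without PBSL 1, 2 and 3. With no filter 3 members, or 3.57%, rose, where 5.58% of all genes did. The count was 4, or 4.88%, with the median-ratio scaling, the trimmed-mean scaling, no variance trend, only these 2 groups or a replicate block. Of all genes between 8.93% and 10.2% rose in these fits. With each library scaled to the same sum 11 members, or 13.4%, rose, against 10.97% of all genes. The call for RPL22L1 was lost in 1 of 18 alternatives, without IL-1β 3 (limma adjusted p = 0.0555), that for RPL7L1 in 4, RPL23 in 5, RPL35A in 7, RPS7 in 12, RPL5 and RPS6 in 14 each and RPL38 in 16.

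PBSL 3 stood apart among the ribosomal protein genes. Taken as log2 differences from the IL-1β mean, the 82 members had an SD of 0.193 in PBSL 3, against 0.0661 in PBSL 1 and 0.107 in PBSL 2. Of these members, 39 lay above the IL-1β mean in PBSL 3, against 73 in PBSL 1 and 66 in PBSL 2. RPL41 had 2089, 1869 and 1239.8 in PBSL libraries 1, 2 and 3, and RPS27 had 4548, 4073 and 3219. In contrast to these low values, RPS7 and RPLP1 were highest in library 3. Other genes, named after their values were seen, showed the same library apart: RPS21, RPS18 and RPS29 lay 0.54, 0.35 and 0.31 below the mean of the other PBSL libraries on the log2 scale, and RPL28 lay 0.20 above it.

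**Figure D4:**
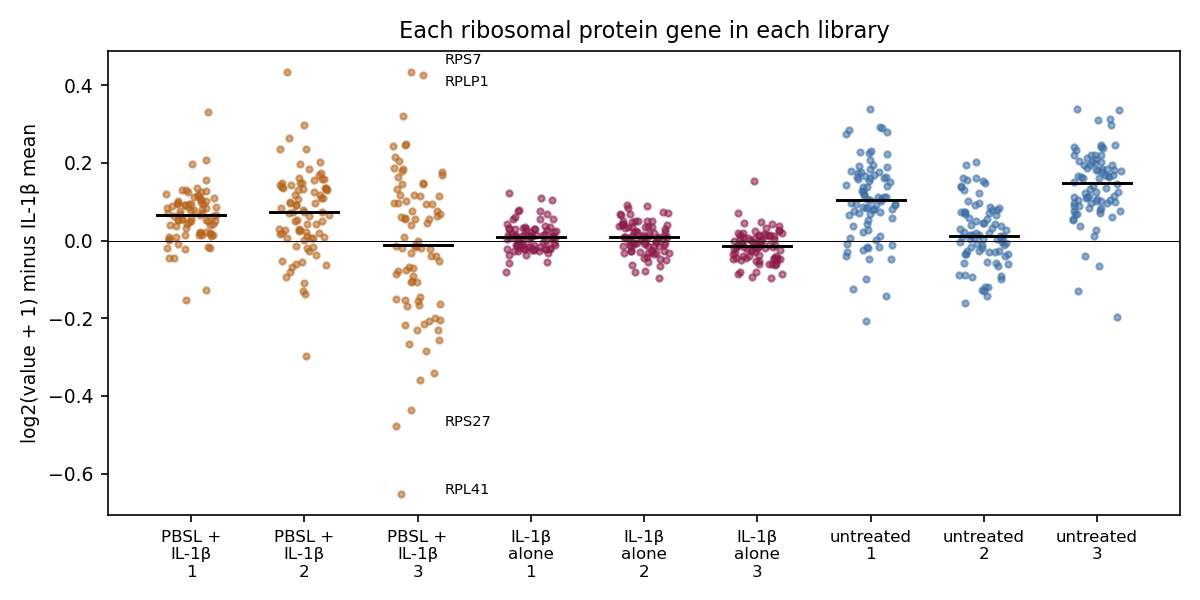
Log2(value + 1) of each tested ribosomal protein gene minus its mean in the 3 IL-1β libraries (y axis), for each of the 9 libraries. Points are genes and the black line is the median; in PBSL library 3 the genes spread most, with an SD of 0.193, from RPL41 at the bottom to RPS7 and RPLP1 at the top.

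The deviation of PBSL 3 moved with base composition. Across the 82 members, the log2 difference of PBSL 3 from the mean of the other PBSL libraries had a Pearson's r of -0.352 with the GC content of the principal transcript, and across 11904 tested genes -0.586. The same values were 0.261 and 0.254 for PBSL 1, and 0.304 and 0.309 for PBSL 2. These are descriptions across genes that share 1 library, and PBSL 3 enters the mean against which the other libraries were set. In the 27 members of lowest GC content the median deviation in PBSL 3 was 0.023, in the middle 28 it was -0.092, and in the 27 of highest GC content -0.18. With a trend on length and GC content removed, 7 members rose in PBSL with IL-1β relative to IL-1β alone and none fell, where 14.7% of all genes rose. Relative to untreated cells 3 rose and 42 fell, where 21.9% of all genes rose and 24.6% fell. The same removal took the number that fell in IL-1β alone against untreated cells, a comparison without PBSL libraries, to 48. Of all genes 23.4% fell in that fit.

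**Figure D5:**
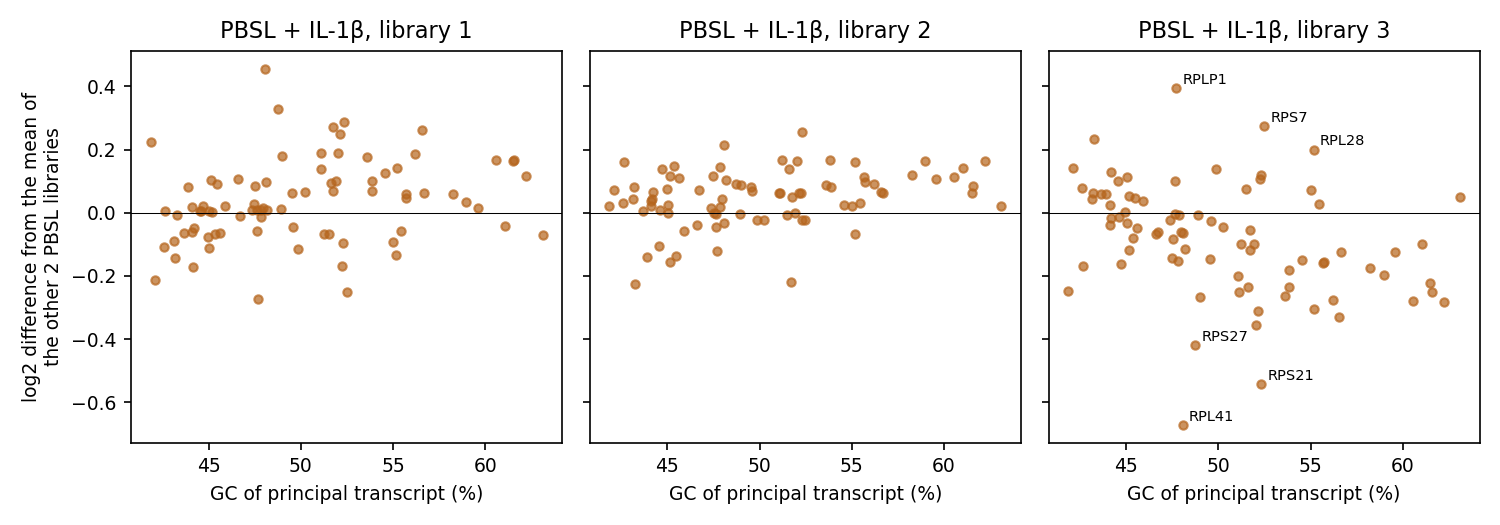
Log2 difference of each ribosomal protein gene in 1 PBSL with IL-1β library from the mean of the other PBSL libraries (y axis) against the GC content of its principal transcript (x axis, percent), with a panel for each library. Points are genes. In library 3 the third of highest GC content has a median of -0.18, though its genes range from -0.54 to 0.27. RPL41, RPS21 and RPS27 lie lowest, at 48.1%, 52.3% and 48.7% GC, so the lowest genes are not the most GC-rich ones.

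The third comparison set PBSL with IL-1β against untreated cells and shares libraries with both others. Here the duplicates RPL22L1 and RPL7L1 stood out. RPL22L1 had 166, 178 and 153 in PBSL with IL-1β, against 129.4, 133 and 115 in untreated cells. RPL7L1 had 53.7, 59.4 and 53.4 in PBSL with IL-1β, against 47.1, 43.9 and 43.8 in untreated cells. Neither gene's groups overlapped, and the log2 fold changes were 0.40 (SE 0.0756, limma adjusted p = 0.00144) and 0.30 (SE 0.0566, adjusted p = 0.00142). Both calls held under all 18 alternatives, with the highest adjusted p at 0.0105 for RPL22L1 and 0.00815 for RPL7L1. With IL-1β alone against untreated cells, the same genes had log2 fold changes of 0.07 (adjusted p = 0.519) and 0.10 (adjusted p = 0.218). Other tested duplicates were not called in PBSL with IL-1β against untreated cells. RPL26L1 was at -0.12 (limma adjusted p = 0.108), RPS27L at -0.12 (adjusted p = 0.231) and RPL10L at 0.08 (adjusted p = 0.579).

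Besides RPL22L1 and RPL7L1, RPL7A fell by 0.15 on the log2 scale (limma adjusted p = 0.0342) and RPL15, a large-subunit protein, by 0.14 (adjusted p = 0.0489). These falls were less firm: the call for RPL7A was lost in 10 of 18 alternatives and that for RPL15 in 12. The highest limma adjusted p was 0.116 for RPL7A and 0.171 for RPL15. RPL15 had 1509, 1514 and 1487 in PBSL with IL-1β, against 1682, 1560.2 and 1723 in untreated cells, with no overlap. The 4 called members, 2 in each direction, compare with 41.6% of all genes called, 22.3% higher and 19.3% lower. The PBSL libraries lay wholly above the untreated ones in 4 members and wholly below in 9, where the background was 26% and 22.1%. Of the members that fell with IL-1β alone, RPL7 was here at -0.13 (adjusted p = 0.064), RPS3A at -0.14 (adjusted p = 0.0727) and RPL5 at -0.08 (adjusted p = 0.257), none of them called. The members' median was -0.065, with 62 of 82 below 0, against a median of 0.031 over all genes. It was -0.028 without PBSL 3 and -0.037 without untreated 3. The summed share was 15.2% ± 0.405 in PBSL with IL-1β and 16.3% ± 0.450 in untreated cells (SD, n = 3 each), and all 3 PBSL libraries lay below the untreated ones. With the libraries rescaled by the median ratio 2 members rose and 9 fell, and with each library scaled to the same sum 2 rose and 15 fell. The number that fell was 0, 8 and 0 without untreated 1, 2 and 3, and 0 without any 1 of the IL-1β libraries. It was 10, 2 and 3 without PBSL 1, 2 and 3. With 1 library left out, between 15.6% and 20.7% of all genes fell.

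The duplicates were also set against their parent genes. The value of RPL22L1 as a percent of RPL22 was 104%, 98.3% and 81.5% in PBSL with IL-1β, 89.4%, 85.9% and 76.1% in IL-1β alone, and 70.3%, 73.6% and 61.9% in untreated cells. PBSL values overlapped those of IL-1β alone, while both groups given IL-1β lay above every untreated library. In mouse, Rpl22 is known to hold down the mRNA of its duplicate. RPL7L1 stood at 6.56%, 6.83% and 6.14% of RPL7 in PBSL with IL-1β, 6.09%, 6.49% and 6.27% in IL-1β alone, and 4.86%, 4.99% and 4.62% in untreated cells, and here too the untreated libraries were lowest. RPS27L, a p53 target in human cells, stood at 8.06%, 8.15% and 12.7% of RPS27 in PBSL with IL-1β, 9.60%, 8.58% and 9.17% in IL-1β alone, and 8.79%, 8.72% and 8.59% in untreated cells. In library 3 of PBSL with IL-1β, RPS27 was the lowest of the 3 libraries at 3219 and RPS27L the highest at 410.1, against 367 and 332 in libraries 1 and 2.

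Of the remaining duplicates none was called in the main fit. RPL26L1 averaged 63.8 ± 4.08 in PBSL with IL-1β, 63.3 ± 0.932 in IL-1β alone and 69.2 ± 2.01 in untreated cells (SD, n = 3 each). Every library given IL-1β lay below the lowest untreated one, at 67.1. Against untreated cells it was at -0.13 with IL-1β alone (limma adjusted p = 0.102) and -0.12 with PBSL and IL-1β (adjusted p = 0.108). It was called in 4 and 2 of the 18 alternatives. RPL10L, a duplicate active mainly in testis, had 5.34 ± 0.744 in PBSL with IL-1β, 5.26 ± 0.598 in IL-1β alone and 4.99 ± 0.683 in untreated cells. RPL39L, another testis-enriched duplicate, did not exceed 0.506 in any library. RPL3L, a duplicate of heart and skeletal muscle, was listed at 0 in 7 of 9 libraries and reached 0.202 in PBSL 2.

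Members with and without the pyrimidine tract at an annotated start were set side by side. With IL-1β alone against untreated cells the median was -0.084 in the 47 with a tract and -0.084 in the 20 without. With PBSL and IL-1β against IL-1β alone it was 0.043 in those with a tract and 0.0084 in those without, and against untreated cells -0.063 in both sets. The 28 members that contain small nucleolar RNA genes had a median of -0.10 with IL-1β alone against untreated cells, beside -0.084 in the other 54, and 0.026 with PBSL and IL-1β against IL-1β alone, beside 0.044. No test of these medians was made.

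Genes that share the tract, handle ribosomal proteins or read the state of ribosomes were followed beside the members. Among fusion and scaffold genes, FAU, RACK1 and RPL36AL were not called with IL-1β alone against untreated cells or with PBSL against IL-1β alone, and RPL36AL, a duplicate of RPL36A, rose by 0.18 in PBSL with IL-1β against untreated cells (limma adjusted p = 0.00787). Of 28 other genes listed for a terminal oligopyrimidine tract, 24 were in the table and tested. With IL-1β alone 6 of the 24 fell and none rose, where 16% of all genes fell. NAP1L1, a histone chaperone, averaged 306 ± 9.30 in IL-1β cells and 359 ± 14.6 in untreated cells (limma adjusted p = 0.0075), and EEF1G, a subunit of the elongation factor that loads tRNA, averaged 606 ± 7.29 in IL-1β cells and 679.7 ± 34.4 in untreated cells (adjusted p = 0.0229). With PBSL against IL-1β alone, where 11.5% of all genes rose, 5 of the 24 rose and none fell: HNRNPA1, an RNA-binding protein, by 0.30 (adjusted p = 0.00847), PABPC4, a poly(A)-binding protein, by 0.32 (adjusted p = 0.00884), NPM1, a nucleolar chaperone, by 0.28 (adjusted p = 0.0109), BTF3, a factor that binds nascent chains, by 0.17 (adjusted p = 0.0281) and TOMM20, a mitochondrial import receptor named after its value was seen, by 0.24 (adjusted p = 0.0338). With PBSL and IL-1β against untreated cells 3 of the 24 rose and 5 fell, where 22.3% of all genes rose and 19.3% fell.

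Of 16 genes listed as chaperones and nuclear importers of ribosomal proteins, 7 rose with PBSL against IL-1β alone and none fell. Of all genes 11.5% rose and 11% fell, and the 16 had a median log2 fold change of 0.21. The list is not limited to genes dedicated to ribosomal proteins, since it holds general importers such as KPNB1. KPNB1, the general importin-β, averaged 135 ± 11.4 in PBSL with IL-1β and 109 ± 1.74 in IL-1β alone, a log2 fold change of 0.31 (limma adjusted p = 0.00981). IPO9, another importin, averaged 20.8 ± 2.05 in PBSL with IL-1β and 16.4 ± 0.215 in IL-1β alone (adjusted p = 0.0115), and GRWD1, the chaperone of RPL3, averaged 22.1 ± 2.01 in PBSL with IL-1β and 18.2 ± 0.498 in IL-1β alone (adjusted p = 0.0177). None of the 16 was called with IL-1β alone, where their median was -0.0030, and 7 rose with PBSL against untreated cells, where 22.3% of all genes rose.

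Of 18 genes of mTORC1 control, 1 rose and 2 fell with PBSL against IL-1β alone, where 11.5% of all genes rose and 11% fell. With IL-1β alone 3 rose and 3 fell, where 16.2% of all genes rose and 16% fell. With PBSL and IL-1β against untreated cells 5 rose and 2 fell, where 22.3% of all genes rose and 19.3% fell. DDIT4, which restrains mTORC1 under stress, averaged 67.7 ± 19.9 in PBSL with IL-1β, 116 ± 4.69 in IL-1β alone and 52.5 ± 3.54 in untreated cells. It rose with IL-1β by 1.13 on the log2 scale (limma adjusted p = 9.56e-05) and was lower with PBSL than with IL-1β alone, at -0.80 (adjusted p = 0.00453). SESN2, another stress-induced restraint of mTORC1, averaged 10.3 ± 1.77 in PBSL with IL-1β, 13.9 ± 0.597 in IL-1β alone and 10.4 ± 0.420 in untreated cells. SESN2 was at -0.41 in PBSL with IL-1β against IL-1β alone (adjusted p = 0.0112) and at 0.39 in IL-1β alone against untreated cells (adjusted p = 0.0068). EIF4EBP1, which blocks the cap-binding protein, rose with IL-1β by 0.40 (adjusted p = 0.00261), and LARP1, which binds the pyrimidine tract, rose in PBSL with IL-1β against untreated cells by 0.23 (adjusted p = 0.00353).

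In the transcription and p53 list of 10 genes, 1 rose with PBSL against IL-1β alone, where 11.5% of all genes rose. With IL-1β alone 1 rose and 1 fell, against 16.2% and 16% of all genes. With PBSL and IL-1β against untreated cells 2 rose and 1 fell, against 22.3% and 19.3%. TBPL1, a relative of the TATA-binding protein, averaged 24.6 ± 1.63 in IL-1β alone and 38.4 ± 0.793 in untreated cells, a log2 fold change of -0.62 (limma adjusted p = 5.25e-06). CDKN1A, a p53 target, averaged 120.1 ± 1.15 in IL-1β alone and 96.8 ± 2.04 in untreated cells (adjusted p = 0.00171). Of 9 genes of ribosome rescue and collision, none was called in either comparison that involves IL-1β alone, and PELO, which splits stalled ribosomes, rose by 0.23 in PBSL with IL-1β against untreated cells (adjusted p = 0.00426).

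The mitochondrial ribosomal proteins, which build the separate ribosome of mitochondria, were counted beside the cytosolic set. Of 78 tested, 24 rose and none fell with PBSL against IL-1β alone, with a median log2 fold change of 0.17, where 8 of 82 cytosolic members rose with a median of 0.041 and 11.5% of all genes rose. With IL-1β alone against untreated cells 2 rose and 8 fell, where 16.2% of all genes rose and 16% fell, with a median of -0.068. With PBSL and IL-1β against untreated cells 18 rose and 4 fell, where 22.3% of all genes rose and 19.3% fell, so the rises were near the background, with a median of 0.099. The difference between the sets was not tested, and both were read on the same libraries.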

How the data were processed

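The deposited table holds a normalised expression signal per gene and library; per the submitters' processing notes, which give no versions, the tools include Trim Galore, STAR and HTSeq with build hg38, and per the labels' protocols a directional mRNA kit (MGIEasy) was used. Whether the signal is FPKM or TPM and how reads with several matches were counted are not given in the sources used here, and read depth is unknown. The lowest value above 0 fell with transcript length (Pearson's r -0.609 across 1405 low genes, a description), so the values carry a division by length.

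Genes with a value of at least 1 in 3 or more libraries (11924) were fitted with limma 3.58.1 in R 4.3.3 on log2(value + 1), which understates changes of low genes. All 9 libraries entered the fit, with a variance trend and 6 residual degrees of freedom, and 2-sided p-values were adjusted over all genes tested (Benjamini-Hochberg, threshold 0.05). Samples were grouped by their labels. The ribosomal protein genes and all gene lists were chosen with earlier results of these data known. Named genes are, in each comparison, the 8 largest called changes in each direction, a fixed list, and the 5 most and 5 least abundant members. RPL17, RPS15A and RPS4X, called lower with IL-1β alone, were described outside this rule. Up to 4 called genes were named for each related list. Alternatives were another pseudocount (0.1), no filter, 3 scalings, no variance trend, only the groups compared, removal of a length and GC trend, a replicate block and leaving out each library. Gene models came from GENCODE 29 and start windows from RefSeq. Tables were made with pandas 2.3.3 and numpy 2.4.6 in Python 3.11.15, figures with matplotlib 3.10.9, and the fit was tested on simulated data. Values of a few genes are not reported here.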

Additional observations from a re-analysis of the deposited data

How the results depend on the processing

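In PBSL with IL-1β against IL-1β alone, 8 members, or 9.76%, rose, against 11.5% of all genes. The count was 3, or 3.57%, with no filter, against 5.58%. It was 4, or 4.88%, with median-ratio rescaling, trimmed-mean rescaling without members, no variance trend or only the 2 groups compared. There between 8.99% and 10.2% of all genes rose. With equal sums per library 11, or 13.4%, rose, against 10.97%. Leaving out 1 library gave 0 to 14 higher and 0 to 1 lower, where 5.45% to 16.9% of all genes rose and 5.57% to 15.8% fell. In IL-1β alone against untreated cells, 12, or 14.6%, fell, against 16% of all genes. The count was 6 with no filter or no variance trend, where 11.6% and 15.4% of all genes fell. With only the 2 groups compared 26, or 31.7%, fell, against 21.2%, and with equal sums per library 36, or 43.9%, against 19.4%. Once a trend on length and GC was taken out 48, or 58.5%, fell, against 23.4%, and the median was -0.17. Leaving out 1 library gave 4 to 21 lower, where 11.99% to 17.99% of all genes fell. In PBSL with IL-1β against untreated cells, 2 rose and 2 fell, against 22.3% and 19.3% of all genes. The count that fell was 0 with no filter, no variance trend or only the 2 groups compared. There 14.9%, 19.1% and 16.2% of all genes fell. It was 9, or 10.98%, with median-ratio or trimmed-mean rescaling, against 20.9% and 21.4%. With equal sums per library it was 15, or 18.3%, against 21.4%. Once that trend was taken out it was 42, or 51.2%, against 24.6%, and the median was -0.15. Leaving out 1 library gave 2 to 4 higher and 0 to 10 lower, where 17.2% to 24.7% of all genes rose and 15.6% to 20.7% fell. The causes were not tested. Over the named members and alternatives, 1828 results stayed on their side of the threshold, 125 calls were lost and 99 gained. None of the 21 called results among them changed sign under any alternative, but over all 114 named results, 41 that were not called had a fitted sign that turned under at least 1, RPL41 among them. The falls of RPL17, RPS15A and RPS4X with IL-1β alone were called too but were not part of this count.

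With a replicate block, 4 members rose in PBSL with IL-1β against IL-1β alone, where 8.93% of all genes rose. In IL-1β alone against untreated cells 6 fell, where 14.2% of all genes fell. In PBSL with IL-1β against untreated cells 2 rose and 0 fell, against 20.2% and 17.8% of all genes. Libraries with the same number had residual correlations between -0.225 and 0.0681, and those with different numbers between -0.111 and 0.196. These values gave no sign of pairing by number. They cannot settle whether libraries shared a culture or batch, since the residuals of the 3 libraries in a group sum to 0. The labels state no pairing. Read depth is unknown, and 3 libraries a group limit the precision.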
